A study of Mus musculus with 8 samples.

Results

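Expression of 9 Slc22 organic ion transporter genes was examined in livers of adult female mice given dihydrotestosterone (DHT), an androgen that cannot be converted to estrogen. The genes were Slc22a3, Slc22a5, Slc22a7, Slc22a23, Slc22a26, Slc22a27, Slc22a28, Slc22a29 and Slc22a30. They were chosen by symbol, through their Ensembl identifiers, from the 14317 mouse genes of the deposited expression table, in which 15 genes carry an Slc22 symbol. All 9 passed the filter on low values, a mean of at least 10 over all libraries, Slc22a28 only through the mice given DHT.

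The comparison was between 4 Con-Veh and 4 Con-DHT mice. Both groups were labelled WT. Per the study's methods, mice of both groups carried a floxed allele without Cre, which the label alone does not show. Silastic pellets, empty or holding 10 mm of DHT, were implanted at 7 weeks of age, and both groups ate a western diet (WD) rich in fat, fructose and cholesterol for 8.5 weeks and were fasted overnight before euthanasia. Each mouse gave 1 liver RNA library, so the SDs below are over mice.

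Slc22 proteins are membrane carriers that move small charged molecules across the plasma membrane. In hepatocytes they take up endogenous compounds and drugs from the blood, among them organic cations, carnitine and organic anions such as steroid conjugates. Rodents have an enlarged group of organic anion transporter genes of this family on mouse chromosome 19, with near-identical members. Many transporter genes of the mouse liver are expressed at different levels in females and males.

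Slc22a26, Slc22a27 and Slc22a28 differed most between the groups. Slc22a26 was 54.01-fold lower and Slc22a27 was 9.92-fold lower in Con-DHT livers, whereas Slc22a28 was 6.57-fold higher. Slc22a5, the carnitine carrier, was 1.29-fold higher. These are ratios of the group means of the normalised read counts, which are reads divided by 1 size factor per library. The other 5 genes did not pass the test. With limma and Benjamini-Hochberg adjustment at a threshold of 0.05, 4 of the 9 genes were called, 2 higher and 2 lower, against 7.21% of the 14312 genes tested, of which 4.60% were called higher and 2.61% lower. The tests on recovered reads also called these 4 genes and no other member, against 7.15% of all genes by edgeR and 11.0% by DESeq2. The groups did not overlap for these 4 genes, against 15.1% of all genes tested. Slc22a26 and Slc22a27 also stand in the study's own list of most decreased genes, which was drawn from these same samples, so their decrease is not independent evidence.

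In whole liver, fewer cells of a type and less RNA per cell cannot be told apart. None of 8 hepatocyte markers was called by limma, with 0 at an unadjusted p under 0.05, 0 by edgeR and 1 by DESeq2, and their summed normalised count was 944484 to 1740560 in Con-Veh and 966594 to 1129350 in Con-DHT. Of these 8 markers, 7 had a negative log2 fold change, with a median of -0.14 over the 8. The 1 called by DESeq2 was Ahsg, which was lower (DESeq2 adjusted p = 0.046). Of 7 Kupffer cell and macrophage markers, 7 had a negative log2 fold change and an unadjusted limma p under 0.05, with a median of -0.57. The sums over the 7 were 4204 to 4915 in Con-Veh and 3053 to 4081 in Con-DHT. After adjustment 3 were called lower, or 42.9%, against 7.21% of all genes tested. These 3 were Vsig4 and Cd68, called in 8 of 8 leave-one-out fits, and Clec4f, called in 2 of 8, and none was called under spike-in scaling (limma adjusted p = 0.87, 0.84 and 0.93). Of 5 sinusoidal endothelial markers in the table, 2 were called lower, with sums of 3021 to 3359 and 2220 to 2541. These were Stab2, called in 6 of 8 leave-one-out fits and lost under spike-in scaling (limma adjusted p = 0.88), and Lyve1, called in 2 of 8. Their part in the Slc22 differences was not tested. Of the 6 cholangiocyte and 6 stellate cell markers 0 were called by limma, edgeR or DESeq2, with 0 and 1 at an unadjusted p under 0.05. The 5 neutrophil and 4 kidney tubule markers were not among the features analysed, 1 of 6 lymphocyte markers was and was not called, and 1 of 4 pancreas markers was, Cela1, which was higher (log2 fold change 0.94, limma adjusted p = 0.034, called in 3 of 8 leave-one-out fits and not without the intensity trend, at 0.058). A library held between 13123962 and 17815944 reads of mouse genes. The median was 15439690 reads for Con-Veh and 14375913 reads for Con-DHT.

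The upstream sequence of Slc22a26 is shown because this gene had the largest difference, and those of Slc22a28 and Slc22a30 because the 2 genes are nearly identical there and yet gave different values. The sequences are the 250 bases before the transcription start in RefSeq (GRCm38.p6), 5′ to 3′ on the gene's own strand, which is the minus strand in each case. For Slc22a26 (chr19:7802668-7802917), capitals mark matches to motifs that were searched on both strands. For Slc22a28 (chr19:8131983-8132232) and Slc22a30 (chr19:8405106-8405355), capitals mark the bases that differ between them in an alignment.
Slc22a26: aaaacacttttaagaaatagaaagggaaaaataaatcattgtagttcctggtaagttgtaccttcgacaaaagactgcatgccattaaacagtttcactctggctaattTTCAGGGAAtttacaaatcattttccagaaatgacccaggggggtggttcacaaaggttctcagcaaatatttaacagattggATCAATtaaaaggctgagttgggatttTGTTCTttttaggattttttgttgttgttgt
Slc22a28: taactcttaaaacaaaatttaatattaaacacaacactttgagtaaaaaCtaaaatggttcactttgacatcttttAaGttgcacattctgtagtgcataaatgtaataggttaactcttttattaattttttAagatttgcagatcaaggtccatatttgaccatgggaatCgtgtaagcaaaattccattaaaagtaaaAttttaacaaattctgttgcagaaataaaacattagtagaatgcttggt
Slc22a30: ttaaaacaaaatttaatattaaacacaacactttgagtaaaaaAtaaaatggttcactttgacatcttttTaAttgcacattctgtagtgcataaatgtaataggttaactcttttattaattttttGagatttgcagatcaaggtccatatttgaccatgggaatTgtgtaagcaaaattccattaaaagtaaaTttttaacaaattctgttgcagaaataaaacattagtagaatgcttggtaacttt

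Promoter entries matched 8 of the 9 genes by symbol, each covering 250 bases before and 50 bases after the start. The windows of Slc22a28 and Slc22a30 were 98.0% identical over 294 aligned bases, with 6 substitutions and 0 gaps. Slc22a29 was 77.9% identical to Slc22a30 and 75.1% identical to Slc22a28, and every other pair was at 53.1% or less. In the Slc22a26 window, TTCNNNGAA, the motif bound by STAT5, was found from base -141 to -133. The half-site AGAACA is bound by steroid receptors such as the androgen and glucocorticoid receptors. It lay on the reverse strand from -31 to -26 and again from -3 to 3, the latter beyond the stretch printed. ATTGAT, a motif of HNF6, lay on the reverse strand from -58 to -53. These matches describe letters in a sequence and are not measured binding sites. Over all 32851 promoters of the table, TTCNNNGAA was present in 8.30%, AGAACA in 18.97% and ATTGAT in 7.54%, and each was found in 1 of the 8 Slc22 windows. CAAAGTCCA, a motif of HNF4A present in 0.475% of promoters, and TGTTTAC, a FOXA motif present in 3.65%, were found in 0 of the 8.

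**Figure D1:**
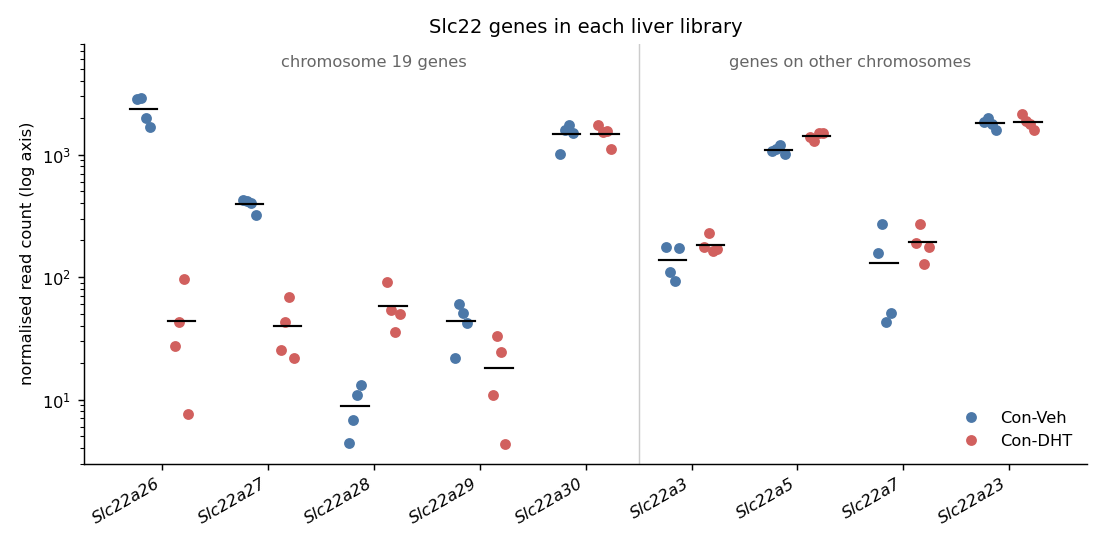
Normalised read count (log axis) of the 9 Slc22 genes in each library, with 1 point per mouse, blue for Con-Veh and red for Con-DHT, and a bar at the group mean. The groups are separate for Slc22a26, Slc22a27, Slc22a28 and Slc22a5, and overlap for the other 5 genes.

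The 5 genes on chromosome 19 lie on the minus strand in the order Slc22a26, Slc22a27, Slc22a28, Slc22a29 and Slc22a30. In the GENCODE M21 annotation of GRCm38, Slc22a26 spans chr19:7781041-7802667 and Slc22a30 spans chr19:8335371-8405111. The gaps between neighbours in that order were 61.7, 96.2, 28.2 and 116.5 kb. They encode carriers of the organic anion transporter group, most of whose substrates are little studied.

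Slc22a26 was abundant in vehicle livers. Its normalised read counts were 2864, 2891, 2003 and 1674 in Con-Veh and 27.5, 42.6, 97.0 and 7.61 in Con-DHT. The lowest vehicle library was far above the highest DHT library, and the DHT libraries differed widely among themselves. The DHT values came from 28, 44, 95 and 7 reads, so the fold is less certain than the separation of the groups. The means were 2358 ± 615 and 43.7 ± 38.3 (SD, n = 4 each). The log2 fold change was -6.17 (SE 0.59, limma adjusted p = 0.00035), and it stayed called in 8 of 8 fits that left out 1 library, at -6.70 to -5.53.

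Slc22a27 was lower in the same direction, from a smaller starting level. Its values were 425, 421, 400 and 323 in Con-Veh and 25.5, 42.6, 68.4 and 21.7 in Con-DHT. The groups did not overlap, and the third DHT mouse had the highest and the fourth the lowest DHT value for this gene, as for Slc22a26. The means were 392 ± 47.6 and 39.6 ± 21.3 (SD, n = 4 each), with a log2 fold change of -3.41 (SE 0.30, limma adjusted p = 0.00029). Without 1 library at a time it was -3.72 to -3.18 and was called in 8 of 8 fits.

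Slc22a28 went the other way. It was near the lower end of the table in Con-Veh, at 4.40, 6.76, 11.0 and 13.1, from only 4, 7, 11 and 15 reads. In Con-DHT the values were 91.2, 54.2, 35.7 and 50.004, from 93, 56, 35 and 46 reads. Every DHT library was above every vehicle library, and the third DHT mouse, which kept the most Slc22a26 and Slc22a27, had the least Slc22a28 of its group. The reverse did not hold, since the fourth DHT mouse had the least Slc22a26 and Slc22a27 but less Slc22a28 than the first and second. The means were 8.80 ± 3.93 and 57.8 ± 23.7 (SD, n = 4 each). The log2 fold change was 2.60 (SE 0.37, limma adjusted p = 0.0028) and was called in 8 of 8 leave-one-out fits, at 2.35 to 2.81. The low vehicle counts make the fold less certain than the separation of the groups.

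Slc22a29 was weakly expressed in both groups. Its values were 22.0, 59.8, 50.9 and 41.8 in Con-Veh and 10.8, 32.9, 24.5 and 4.35 in Con-DHT, and the groups overlapped because of the first vehicle mouse. The means were 43.6 ± 16.2 and 18.1 ± 12.9 (SD, n = 4 each). The log2 fold change of -1.46 (SE 0.55, 95% interval -2.67 to -0.24) did not pass after adjustment over all genes, with a limma adjusted p of 0.14. It was -0.95 without Con-DHT 4, the smallest of the 8 leave-one-out values, and of the alternatives run it passed only when libraries were scaled to the spike-in RNA (limma adjusted p = 0.043). The interval is not adjusted for the number of genes.

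Slc22a30 stayed among the most abundant members in both groups. Its values were 1011, 1591, 1730 and 1504 in Con-Veh and 1740, 1519, 1563 and 1116 in Con-DHT. The ranges lay almost on top of each other, with 1 low mouse on either side. The means were 1459 ± 313 and 1485 ± 264 (SD, n = 4 each), and the log2 fold change was 0.035 (SE 0.18, limma adjusted p = 0.93). Its 95% interval ran from -0.36 to 0.43, so that a change of the size seen for Slc22a28, whose interval was 1.78 to 3.42, lay outside it. The difference between the 2 genes was not tested in itself.

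**Figure D2:**
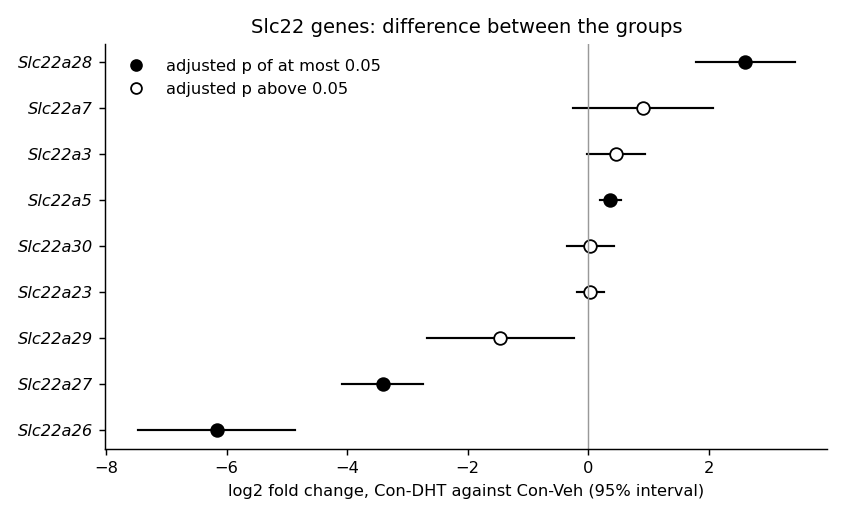
Log2 fold change of each Slc22 gene in Con-DHT against Con-Veh livers, with its 95% interval as a line, from limma on log2(normalised read count + 1) with 4 mice per group. Filled points have an adjusted p of at most 0.05. Slc22a26 and Slc22a27 lie far to the left at -6.17 and -3.41, Slc22a28 lies to the right at 2.60, and Slc22a5 is close to 0 with a short interval.

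Summed over the chromosome 19 genes as normalised reads per kb of exon, the level was 1439 ± 202 in Con-Veh and 511 ± 96.5 in Con-DHT (SD, n = 4 each). The vehicle libraries ranged from 1189 to 1678 and the DHT libraries from 371 to 588, without overlap. Slc22a26 made up 55.0 ± 8.59% of this sum in Con-Veh and 2.73 ± 2.27% in Con-DHT, and Slc22a27 made up 12.7% and 3.55%. Slc22a30 made up 30.6 ± 8.08% in Con-Veh and 86.5 ± 2.66% in Con-DHT, though its own level did not pass the test. Slc22a28 went from 0.322% to 5.70% of the sum, and Slc22a29 held 1.34% and 1.502%. These shares follow from the levels of the 5 genes and add no test to them.

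**Figure D3:**
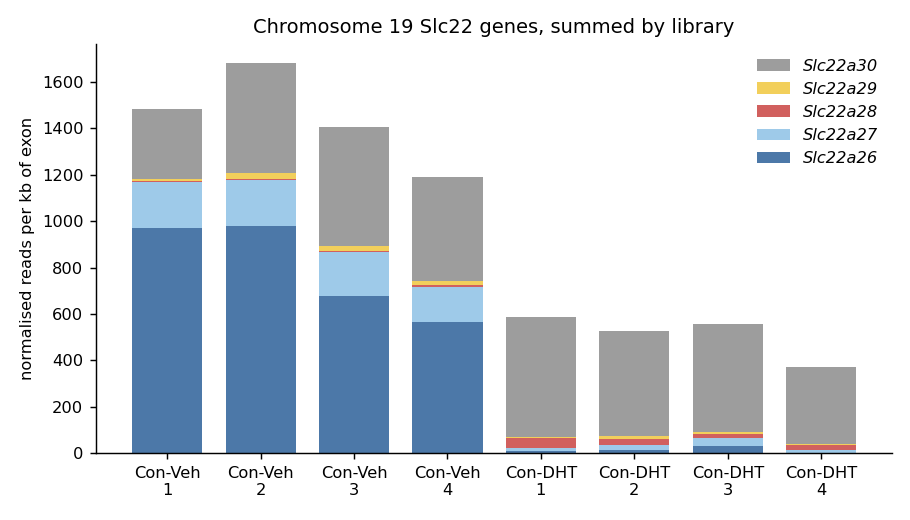
Normalised reads per kb of exon of the 5 chromosome 19 Slc22 genes, stacked in each of the 8 libraries. The vehicle columns reach 1189 to 1678, with Slc22a26 (dark blue) as the largest part, and the DHT columns reach 371 to 588 and consist mostly of Slc22a30 (grey).

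The genes on chromosome 19 are close relatives, which bears on how well reads can be told apart. The longest open reading frames of Slc22a28 and Slc22a30 were 98.8% identical and those of Slc22a27 and Slc22a29 were 97.3% identical. Within each of these pairs, 1 gene was called and the other was not, but the difference within a pair was not tested. Slc22a27 and the weakly expressed Slc22a29 both had negative log2 fold changes, of -3.41 and -1.46. Slc22a26 was 73.5% to 74.2% identical to the other 4, and Slc22a3, Slc22a5, Slc22a7 and Slc22a23 were at 48.1% or less with every other member. Of all 100-base stretches in the exons of Slc22a28, 37.0% also occurred in another gene, mostly Slc22a30, and the share was 21.1% for Slc22a30. It was 7.31% for Slc22a27, 7.51% for Slc22a29 and 0.558% for Slc22a26. The authors counted uniquely mapped reads, so reads that fit 2 genes equally well were left out, and values within a pair may be incomplete. As a share of the summed level per kb of Slc22a28 and Slc22a30, Slc22a28 was 0.709% to 1.44% in Con-Veh and 3.70% to 8.10% in Con-DHT, with no overlap between the groups. For the other pair, Slc22a27 was 88.1% to 95.3% of the sum with Slc22a29 in Con-Veh and 57.7% to 84.1% in Con-DHT.

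**Figure D4:**
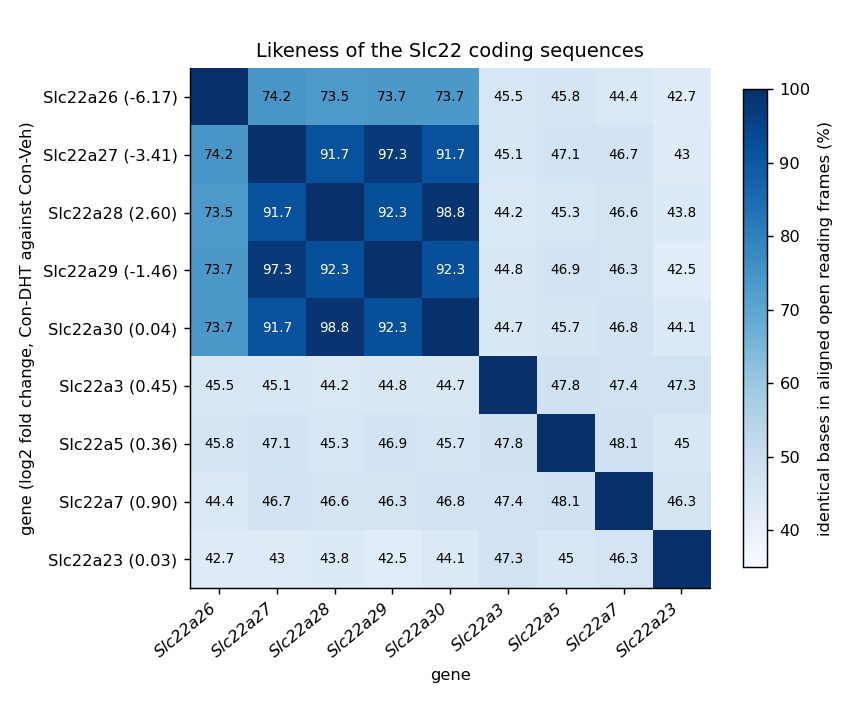
Percent of identical bases between the longest open reading frames of the 9 Slc22 genes, with the log2 fold change of each gene in parentheses at the left. Slc22a28 (2.60) and Slc22a30 (0.035) share 98.8% of their bases and Slc22a27 (-3.41) and Slc22a29 (-1.46) share 97.3%, while the 4 genes on other chromosomes are at 48.1% or less with all others.

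Slc22a5, on chromosome 11, encodes OCTN2, the sodium-dependent carrier that brings carnitine into cells. Carnitine is needed to move long-chain fatty acids into mitochondria. The values were 1077, 1111, 1202 and 1009 in Con-Veh and 1379, 1289, 1507 and 1489 in Con-DHT. The spread within groups was narrow and the highest vehicle library stayed below the lowest DHT library. The means were 1100 ± 80.3 and 1416 ± 102 (SD, n = 4 each), and the log2 fold change was 0.36 (SE 0.079, limma adjusted p = 0.022). The call was less firm than those above. It held in 3 of 8 leave-one-out fits and was lost without Con-Veh 1, 2 or 4 or Con-DHT 3 or 4, with log2 fold changes from 0.32 to 0.41 and adjusted p up to 0.066 over the 8 fits. Scaling libraries to the spike-in RNA gave a larger log2 fold change of 0.56 that was not called (limma adjusted p = 0.51), and without limma's intensity trend the fold change stayed at 0.36 with an adjusted p of 0.056. Of the gene's 100-base exon stretches, 12.9% also occurred in another gene, and its relative Slc22a21 shared the most.

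Slc22a3, Slc22a7 and Slc22a23 did not pass the test. Slc22a3, on chromosome 17, encodes OCT3, a carrier of monoamines and other organic cations. It was at 177, 109, 92.8 and 173 in Con-Veh and at 175, 229, 163 and 168 in Con-DHT. The first and the fourth vehicle mouse were as high as most DHT mice, and the other two were below all of them. The log2 fold change was 0.45 (SE 0.22, limma adjusted p = 0.24, 95% interval -0.027 to 0.93), and leaving out 1 library moved it from 0.28, without Con-Veh 3, to 0.59. In the annotation, 420 exon bases of Slc22a3, or 9.31%, lie opposite exons of Plg, the abundant plasminogen gene. Whether reads were counted by strand is not given in the sources used here, so reads of the 2 genes in that stretch may not have been told apart. Plg itself had a log2 fold change of -0.44 (limma adjusted p = 0.11).

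Slc22a7, also on chromosome 17, encodes OAT2, an organic anion carrier of the hepatocyte. Its values were 158, 270, 42.9 and 51.3 in Con-Veh and 191, 273, 128 and 177 in Con-DHT. The vehicle mice fell widely apart, and only 2 of them were below all DHT mice. The means were 131 ± 107 and 192 ± 60.3 (SD, n = 4 each), with a log2 fold change of 0.90 (SE 0.52, limma adjusted p = 0.34, 95% interval -0.26 to 2.06). It was 0.51 without Con-Veh 3, 0.59 without Con-Veh 4 and 1.38 without Con-Veh 2, and edgeR and DESeq2 gave 0.57 and 0.56. Of the alternatives run, scaling to the spike-in RNA alone gave a call, with a limma adjusted p of 0.015. Slc22a23, on chromosome 13, encodes a member whose substrate is unknown. It was at 1833, 1982, 1783 and 1602 in Con-Veh and at 2138, 1879, 1783 and 1574 in Con-DHT, with ranges that overlapped almost fully. Its log2 fold change was 0.030 (SE 0.10, limma adjusted p = 0.90, 95% interval -0.20 to 0.26), which leaves room for only a small difference.

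Levels of different genes were compared as normalised reads per kb of exon. In Con-Veh, Slc22a26 stood first at 800 ± 209, above all other members in every library. Slc22a30 at 433 ± 92.8 and Slc22a5 at 358 ± 26.2 followed, and their ranges overlapped. Slc22a23 at 282 ± 24.5 and Slc22a27 at 182 ± 22.1 were each apart from the genes next to them in rank. The range of Slc22a23 (251 to 310) still overlapped that of Slc22a30 (300 to 514). Slc22a7, Slc22a3 and Slc22a29 came next, at 62.2, 30.6 and 19.2 with overlapping ranges, and Slc22a28 was last at 4.39. In Con-DHT, Slc22a5 at 461 ± 33.2, Slc22a30 at 441 ± 78.2 and Slc22a23 at 289 ± 36.6 led, each overlapping the next. Slc22a7 followed at 91.5, and Slc22a3 at 40.8, Slc22a28 at 28.8, Slc22a27 at 18.4, Slc22a26 at 14.8 and Slc22a29 at 7.98 formed a run in which each range overlapped the next. By mean level, Slc22a26 was thus at rank 1 of 9 in Con-Veh and at rank 8 in Con-DHT.

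The other genes of the family were described from a list of 16 Slc22 symbols, of which 6 were in the table. Of these 6, 16.7% were called, against 7.21% of all genes tested. Only Slc22a17, which encodes a lipocalin receptor, was called, from 58.0 ± 15.6 to 93.6 ± 6.12 (SD, n = 4 each). Its log2 fold change was 0.71 (limma adjusted p = 0.041), and the call was lost in 7 of 8 leave-one-out fits. Slc22a4, which encodes OCTN1 and is a close relative of Slc22a5 on the same chromosome, had a log2 fold change of 0.41 (limma adjusted p = 0.16). The median log2 fold change of these 6 genes was -0.024, that of the 9 members was 0.035 and that of all genes tested was -0.0081.

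Of 34 other organic ion transporters listed, 24 were in the table. Among these 24, 6 were called, against 7.21% of all genes tested. The calls were 4 higher and 2 lower, against 4.60% and 2.61% of all genes tested. The median log2 fold change of the 24 was -0.093. Slco1a1, a sinusoidal carrier of bile salts and steroid conjugates, rose from 586 ± 194 to 4551 ± 2100 (SD, n = 4 each), with a log2 fold change of 2.88 (limma adjusted p = 0.0011). The study also measured Slco1a1 by qRT-PCR in livers of WD-fed mice and reported an increase with DHT. Abcg2, an efflux pump, had a mean of 368 ± 15.9 in Con-Veh and rose to 741 ± 120, with a log2 fold change of 0.99 (limma adjusted p = 0.0010). Both calls held in 8 of 8 leave-one-out fits and neither gene's groups overlapped.

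The other 4 were less firm. Slco1c1, a thyroid hormone carrier, was at 27.1 ± 16.0 and 75.2 ± 23.4 (log2 fold change 1.54, limma adjusted p = 0.029, called in 2 of 8 leave-one-out fits), and its groups overlapped. Abcc1, an efflux pump, was at 35.5 ± 10.1 and 63.0 ± 6.82 (log2 fold change 0.84, limma adjusted p = 0.036, called in 1 of 8). Slco1a4, a relative of Slco1a1, fell from 2997 ± 612 to 1654 ± 420 (log2 fold change -0.87, limma adjusted p = 0.020, called in 6 of 8). Slco2a1, the prostaglandin carrier, went from 1418 ± 226 to 1034 ± 101 (log2 fold change -0.45, limma adjusted p = 0.046, called in 1 of 8). Under spike-in scaling Slco1c1 kept its call, and Abcc1, Slco1a4 and Slco2a1 lost theirs, with limma adjusted p of 0.083, 0.30 and 0.92.

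**Figure D5:**
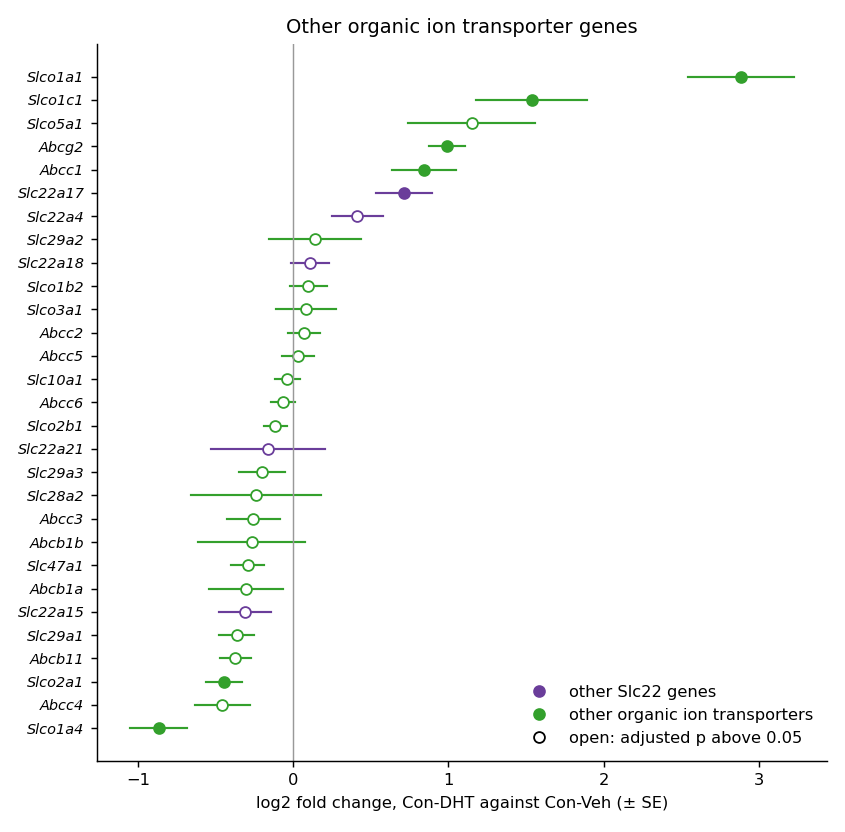
Log2 fold change (± SE, limma, 4 mice per group) in Con-DHT against Con-Veh of 5 other Slc22 genes in purple and of 24 other organic ion transporter genes in green. Filled points have an adjusted p of at most 0.05. Slco1a1 stands alone at the top at 2.88, Slco1a4 is lowest at -0.87, and most of the others lie near 0.

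Genes that act with the cargo of the carriers were also listed. Of 14 carnitine genes, 12 were in the table and 1 was called, with a median log2 fold change of 0.14. This is 8.33%, near the 7.21% of all genes tested, so the count sets these genes apart from no others. Cpt1a, the rate-limiting step that joins carnitine to long-chain fatty acids for entry into mitochondria, rose from 11059 ± 1067 to 15654 ± 937 (SD, n = 4 each), with a log2 fold change of 0.50 (limma adjusted p = 0.012). Its groups did not overlap and the call held in 8 of 8 leave-one-out fits, in the same direction as Slc22a5, but it was lost under spike-in scaling (limma adjusted p = 0.30). The study also measured Cpt1a by qRT-PCR in livers of WD-fed mice and reported no change with DHT. Of 12 monoamine clearance genes, 10 were in the table and 0 were called by limma, edgeR or DESeq2, with 0 at an unadjusted p under 0.05 and a median log2 fold change of -0.13. Among them, Maoa and Maob, the monoamine oxidases that break down substrates of OCT3, had log2 fold changes of -0.28 and -0.26 (limma adjusted p = 0.32 and 0.35).

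The genes around the members were examined to see how far the differences reached. Of 36 tested genes that were not members and lay within 250 kb of one, 1 was called, Tubb2a, a tubulin gene 101 kb from Slc22a23, with a log2 fold change of -1.12 (SE 0.26, limma adjusted p = 0.030). This is 2.78% of the neighbours, against 7.21% of all genes tested. No tested gene other than members lay within 250 kb of Slc22a27, Slc22a28, Slc22a29 or Slc22a30. For Slc22a26 there were 2, Pla2g16 and Lgals12, with log2 fold changes of -0.12 and 0.40 (limma adjusted p = 0.68 and 0.67).

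Likeness of pattern was measured by Pearson's r of log2 values over the 8 libraries, among genes with a mean of at least 50. Both groups enter this r, so a difference between them raises it by itself, and it is given as a description. Slc22a26 and Slc22a27 were each other's closest match at r = 0.994. Next to Slc22a26 came Gc, the vitamin D binding protein, at 0.989 and Cyp2b13, a cytochrome P450, at 0.977. Next to Slc22a27 came Ugt1a1, the bilirubin glucuronidating enzyme, at 0.984 and Gc at 0.980. Slc22a28 was most like Atp8b2 at 0.991, Cyp2d9 at 0.988 and Mug1 at 0.988, and Slc22a5 was most like Cep170 at 0.968, Rnf103 at 0.964 and Galnt7 at 0.960.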

How the data were processed

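RNA from 8 livers was sequenced from NEBNext Ultra II libraries with ERCC spike-in RNA. Per the study's methods, the authors trimmed reads with Trimmomatic, aligned them with STAR, counted uniquely mapped exon reads with featureCounts and used DESeq2. The submitters' processing notes name GRCm39. The deposited values are a normalised signal, reads divided by 1 size factor per library. The table holds 14371 features, 54 of them spike-ins, and no feature has fewer than 81 reads in all.

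Genes with a mean of at least 10 (14312) were tested as log2(value + 1) in limma 3.58.1 (R 4.3.3, intensity trend), and p-values were adjusted by Benjamini-Hochberg over all of them and called at 0.05. The pseudocount shrinks the fold changes of low genes. Dividing by each library's smallest step gave whole reads for 100% of values (tolerance 0.01 reads), on which edgeR 4.0.16 called 1024 genes and DESeq2 1.42.0 called 1569. Fits were tested on simulated data. Other alternatives changed the pseudocount, filter, scaling, trend and replicate block, or left out 1 library.

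Exon lengths, gene positions and open reading frames came from GENCODE M21 (GRCm38), and sequences were aligned with mafft 7.526. The members and gene lists were chosen with earlier results of these data known. The genes named were all 9 members, the called genes of each list or otherwise up to 4 with the smallest p, called neighbours, and the 3 genes most like the strongest members. Gene names outside this rule were added after their values were seen. No sequencing batch is given in the sources used here. A gene of the list of other Slc22 genes is counted there but not reported here by name.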

Additional observations from a re-analysis of the deposited data

How the results depend on the processing

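Of the 9 Slc22 genes, 4 were called in the main test, 3 to 5 over the 11 alternatives and 3 to 4 when 1 library was left out. Slc22a26 and Slc22a27 were called in 11 of 11 alternatives and Slc22a28 in 10 of 10, since it was not testable at a mean of at least 50. Slc22a5 was called in 9 of 11. It was lost under spike-in scaling, with a larger log2 fold change (0.56, adjusted p = 0.51, against 0.36 in the main test), and without the intensity trend (0.36, adjusted p = 0.056), and over all 11 its adjusted p ran from 0.0020 to 0.51. The spike-in scaling factors ran from 0.67 to 1.49 among the Con-Veh libraries and from 0.85 to 1.02 among the Con-DHT libraries. That fit gave Slc22a26 a limma adjusted p of 4.4e-82, against 0.00035 in the main test. Calls lost or gained under this scaling, here and above, are therefore uncertain. Under spike-in scaling, which raised the median log2 fold change of all genes by 0.19, Slc22a7 (log2 fold change 1.10, adjusted p = 0.015) and Slc22a29 (-1.27, adjusted p = 0.043) were called. Their adjusted p ran from 0.015 to 0.69 and from 0.043 to 0.19 over the alternatives. Signs turned for Slc22a23 without Con-Veh 4 (-0.025) or Con-DHT 1 (-0.044), in a range of -0.044 to 0.10, and for Slc22a30 without Con-Veh 1 (-0.13) or Con-DHT 1 (-0.048), in a range of -0.13 to 0.17. Neither was called in any fit. The causes were not tested.

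Of all genes, 1032 were called in the main test, 648 with a mean of at least 50, 637 under spike-in scaling, 1569 by DESeq2 and 633 to 905 without 1 library, the fewest without Con-Veh 4. The other Slc22 genes gave 0 calls with a mean of at least 50, under spike-in scaling, with the replicate block and by edgeR, and 0 to 1 without 1 library. The other organic ion transporters gave 3 under spike-in scaling, 3 with the replicate block and 2 to 5 without 1 library. The carnitine genes gave 0 under spike-in scaling and 1 in all leave-one-out fits, and the monoamine clearance genes gave 0 throughout. Same-numbered libraries did not deviate together (r = -0.19, -0.0060, -0.022 and -0.076), and the labels do not pair the mice. With the replicate block all 4 Slc22 calls stayed, with an adjusted p of 0.049 for Slc22a5. Depth limits Slc22a28 in Con-Veh, at 4 to 15 reads, Slc22a29 in Con-DHT, at 4 to 34 reads, and Slc22a26 in Con-DHT, at 7 to 95 reads.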
